A study of Rattus norvegicus with 26 samples.

Results

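The integrins, the laminins and their partners of the basement membrane were followed while rat multipotent adult progenitor cells (rMAPCs) were driven toward smooth muscle. The set was chosen by gene name: every array probe named for an integrin α or β chain or a laminin α, β or γ chain, together with *Nid1*, *Nid2*, *Agrn*, *Fn1*, *Vtn* and *Dag1*. It held 41 genes on 66 probes, of 41012 gene probes in all, and a gene with several probes was represented by the brightest. The 41 genes were 13 integrin α chains, 8 integrin β chains, 11 laminin chains, 5 other matrix proteins, the laminin receptor dystroglycan (*Dag1*) and 3 integrin binding proteins, which carry an integrin name without being chains. No probe carried the names *Hspg2* or *Npnt*, which the rule also lists.

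The cells were 2 rMAPC lines, Cl19 and 3c3, both described as Oct4 expressing clones from the bone marrow of female Fischer rats, Cl19 from a donor of 3 weeks and 3c3 from a donor of embryonic day 18. Both were cultured with TGFβ1 and PDGF-BB, and RNA was taken on d0 (before the factors), d2, d4 and d6, on 3 arrays per line and day. A purchased RNA, labelled rat aortic and given in the study's methods as smooth muscle cell RNA, is called primary SMC here and was hybridized in duplicate, which brought the total to 26 arrays in 9 groups. Each line is a single clone, so a difference between Cl19 and 3c3 is a difference between 2 clones that also differ in donor age, and the sources do not settle whether the 2 primary SMC arrays held 1 RNA or separate ones.

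Laminins are trimers of an α, a β and a γ chain that polymerize into the sheet of a basement membrane, with nidogens, agrin and type IV collagen bound to them. Integrins are αβ pairs that hold cells to that sheet or to fibronectin, vitronectin and collagens, and they pass signals from it through talin, kindlin and integrin-linked kinase. The α1β1γ1 trimer is the laminin of the early embryo and of parietal endoderm, a trimer with the α3 and β3 chains and integrin α6β4 anchor epithelia, and laminin α4, laminin α5, laminin β2 and integrins α1β1 and α7β1 are typical of the vessel wall and of contractile smooth muscle.

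Values are log2 of the array intensity after quantile normalization over the 26 arrays. A change is a difference of group means on that log2 scale with its standard error from limma, and a probe was called when its p, adjusted over the 24442 tested probes, was below 0.05. Arrays of a group are listed as replicates 1, 2 and 3, and in each line the d0, d2, d4 and d6 arrays of a replicate number shared a slide. The p-values measure only the spread between these arrays, since the labels do not say whether the 3 arrays of a day came from separate differentiations and the study's methods call them biological replicates without saying more. In RNA from whole cultures, fewer cells of a type and less RNA per cell cannot be told apart.

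Of the probes, 43.2% to 61.4% were well above background per array, and no gene probe was saturated. The slide of 3c3 replicate 3 stood apart, with a negative-control signal of 1.77 to 5.30 against 0.986 to 1.24 on all other arrays. The array labelled Cl19 d2 replicate 1 lay closer to the 3c3 d2 arrays (root mean square difference 0.382 to 0.538) than to the other Cl19 d2 arrays (0.917 and 0.876). Line and scan day cannot be told apart, because Cl19, 3c3 and primary SMC were scanned on separate days. The labels were checked against marker lists. *Pou5f1* read 10.22 to 10.31 on the Cl19 d0 arrays and 11.47 to 11.63 on the 3c3 d0 arrays. On the d6 arrays it read 0.525 to 2.005 in Cl19 and 6.816 to 7.965 in 3c3. The part of this in the differences between the lines was not tested. The mean of 7 smooth muscle markers went from 5.08 to 5.47 (d0) to 8.02 to 8.23 (d6) in Cl19 and from 5.08 to 5.36 to 7.50 to 8.15 in 3c3. In primary SMC it was 10.24 to 10.35, and all 7 were above background. By d6, 5 of the 7 were called higher in each line, beside 22.0% of all tested probes in Cl19 and 19.7% in 3c3.

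Over 6 days the set changed in both lines, with more genes called higher than lower. In Cl19, 17 of the 41 genes (41.5%, or 47.2% of the 36 tested) were called higher on d6 than on d0 and 10 (24.4%, or 27.8% of those tested) lower, where 22.0% of all tested probes were called higher and 30.3% lower. In 3c3, 20 genes (48.8%, or 55.6% of those tested) were called higher and 4 (9.76%, or 11.1%) lower, against 19.7% and 28.6% of all probes. The median change of the 36 tested genes was 0.72 in Cl19 and 1.36 in 3c3, beside -0.20 and -0.21 over all tested probes. Each of the 36 genes was well above background on all the arrays of 1 group or more, as the test required, and the 5 that were not (*Itga4*, *Itga8*, *Itgb2*, *Itgb8* and *Itgb1bp1*) were not tested. *Itga10*, *Itgb3* and *Vtn* were fully above background on Cl19 d6 alone, and *Lama2* in primary SMC alone, so these 4 entered the test only through the group where they were high. Of the 41 genes, 23 were above background on all 26 arrays.

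The same 14 genes were called higher in both lines, among them the laminin chains *Lama3*, *Lama5* and *Lamb2*, the matrix genes *Agrn* and *Fn1*, the α chains *Itga5*, *Itga9* and *Itgav*, and the β chains *Itgb1*, *Itgb3*, *Itgb4*, *Itgb5* and *Itgb6*. The integrin chains *Itga2*, *Itga7* and *Itgae* and the binding protein gene *Itgb3bp* fell in both. *Lama4*, *Itga6* and *Itgb7* fell in Cl19 and rose in 3c3. *Lama1*, *Lamb1* and *Lamc1* were called, and lower, in Cl19 alone, *Itga10*, *Itga11* and *Vtn* were called higher in Cl19 alone, and *Itga3*, *Dag1* and *Nid2* in 3c3 alone. The remaining 6 tested genes, *Itga1*, *Itgb1bp2*, *Lama2*, *Lamb3*, *Lamc3* and *Nid1*, were called in neither line.

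**Figure D1:**
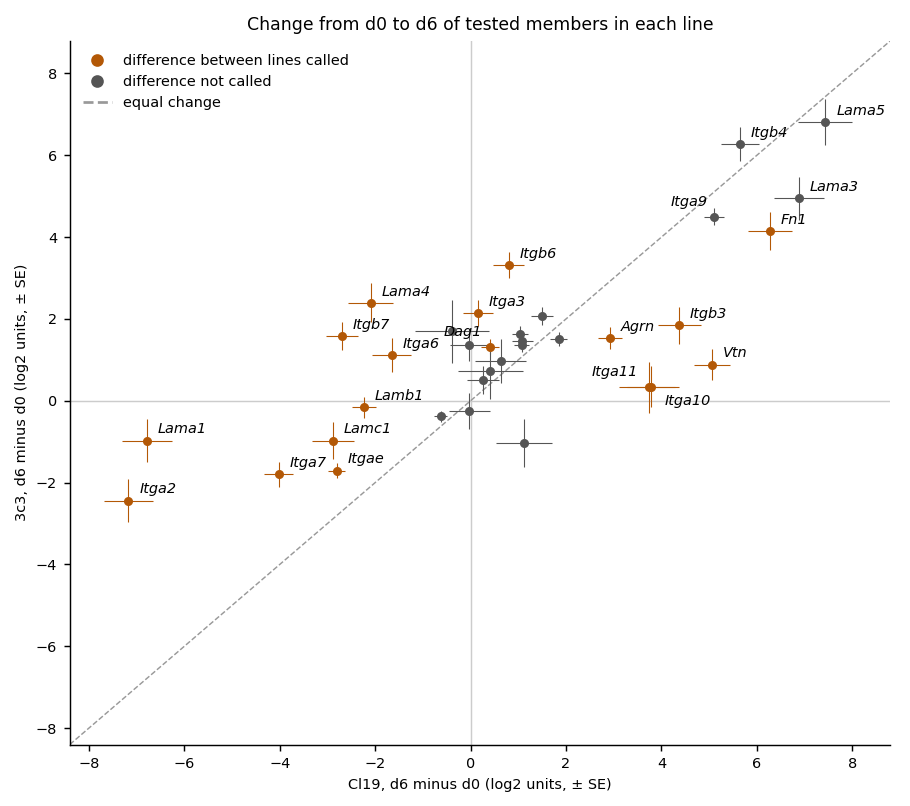
Change from d0 to d6 of 35 of the 36 tested genes in Cl19 (x axis) and 3c3 (y axis), in log2 units with standard errors. Orange points are the 18 genes whose change differed between the lines, and the dashed line marks equal change. *Lama5*, *Itgb4*, *Lama3* and *Itga9* lie high on both axes, while *Lama1* and *Itga2* lie far to the left, with much larger falls in Cl19 than in 3c3.

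The laminin α1β1γ1 genes separated the 2 lines. *Lama1*, which encodes the α chain of that trimer (probe at chr9:106973476-106973535 on the plus strand, rn4), read 15.73, 15.22 and 15.29 on the Cl19 d0 arrays and 7.80, 8.50 and 9.59 on d6. In 3c3 it read 15.40, 15.10 and 15.54 on d0 and 13.81, 14.53 and 14.78 on d6. The d0 arrays of both lines sat in the same narrow range, and by d6 the Cl19 arrays were far below all 3c3 arrays. The fall in Cl19 was 110.3-fold (log2 difference -6.79 ± 0.52, adjusted p = 2.96e-09). The 3c3 difference of -0.97 ± 0.52 did not pass (adjusted p = 0.132), although it did with 75th percentile scaling (adjusted p = 0.0491) and with a fit to the compared groups alone (0.0414).

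The β and γ chains moved alongside in Cl19. *Lamb1*, the β chain, read 15.60, 15.50 and 15.58 on Cl19 d0 and 13.27, 13.27 and 13.42 on d6, a 4.72-fold fall (-2.24 ± 0.25, adjusted p = 4.1e-07). The 3c3 arrays read 15.20, 15.29 and 15.31 on d0 and 14.68, 15.23 and 15.40 on d6, ranges that overlapped (-0.16 ± 0.25, adjusted p = 0.635). *Lamc1*, the γ chain, read 10.04, 10.62 and 9.95 and then 6.76, 7.75 and 7.47 in Cl19, a 7.36-fold fall (-2.88 ± 0.44, adjusted p = 1.89e-05). In 3c3 it read 9.64, 10.72 and 9.88 on d0 and 8.33, 9.85 and 9.14 on d6, lower on d6 on each of the 3 slides (-0.97 ± 0.44, adjusted p = 0.0793). With the replicate number as a block, that 3c3 difference passed (adjusted p = 0.000623).

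Tested directly, the d6 change was lower in Cl19 than in 3c3 by 5.81 ± 0.74 for *Lama1* (adjusted p = 1.54e-05), by 2.08 ± 0.36 for *Lamb1* (adjusted p = 0.000342) and by 1.91 ± 0.63 for *Lamc1* (adjusted p = 0.0404), all on the log2 scale. The *Lamc1* difference was lost without the slide of 3c3 replicate 3 (adjusted p = 0.168) and without any of 9 of the 12 d0 and d6 arrays (adjusted p = 0.0513 to 0.122), the exceptions being Cl19 d6 replicate 2, 3c3 d0 replicate 2 and 3c3 d6 replicate 1. Parietal endoderm, the embryonic layer known for this laminin, has its own marker list, and 7 of its 8 markers fell in Cl19 and 4 in 3c3, with *Plat* rising in both. Over all tested probes, 30.3% were called lower in Cl19 and 28.6% in 3c3. The list's mean went from 11.95 to 12.01 (d0) to 9.70 to 10.45 (d6) over the Cl19 arrays, and from 11.92 to 12.04 to 11.79 to 12.02 over the 3c3 arrays, and its part in the laminin result was not tested. The type IV collagen genes *Col4a1* and *Col4a2*, named here after their values were seen, fell in Cl19 by 2.40 and 2.52 on the log2 scale and were not called in 3c3 (-0.26 and -0.09), and both differences between the lines were called (adjusted p = 1.78e-05 and 4.88e-05).

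*Lama5* rose in both lines. It encodes the laminin α chain of most mature basement membranes, vessel walls included, and its probe lies at chr3:169234188-169234247 on the minus strand (rn4). The Cl19 arrays read 7.84, 7.11 and 7.58 on d0 and 14.49, 15.00 and 15.36 on d6. The 3c3 arrays read 6.07, 5.29 and 6.35 on d0 and 13.34, 12.22 and 12.59 on d6. The rise was 173-fold in Cl19 (7.44 ± 0.57, adjusted p = 2.79e-09) and 113-fold in 3c3 (6.82 ± 0.57, adjusted p = 1.65e-08), and the difference between the lines was not called (0.62 ± 0.80, adjusted p = 0.726). Its other probes, A_44_P429455 and A_44_P189469, were called higher too, by 7.56 and 6.24 in Cl19 and 7.12 and 4.47 in 3c3.

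*Lamb2*, a β chain that pairs with laminin α5 in muscle and vessels, rose less. In Cl19 it read 11.24, 10.75 and 10.94 on d0 and 12.53, 12.77 and 12.14 on d6, a 2.83-fold rise (1.50 ± 0.23, adjusted p = 1.46e-05). The 3c3 arrays read 10.74, 10.46 and 10.82 and 12.41, 13.04 and 12.80, a 4.20-fold rise (2.07 ± 0.23, adjusted p = 4.91e-07). In both lines every d6 array was above every d0 array.

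The proximal promoters of the 3 chains that fell in Cl19 and of *Lama5*, which rose, are shown so that the 2 directions can be set side by side. Each is the 250 bases before the annotated start, read on the gene's strand from RefSeq (GRCr8): *Lama1* at chr9:115139298-115139547 (plus), *Lamb1* at chr6:53562846-53563095 (plus), *Lamc1* at chr13:68051987-68052236 (minus) and *Lama5* at chr3:187695975-187696224 (minus). Capitals mark CAGAC, the core of the SMAD binding element, and GGGCGG, the core of the GC box, on either strand, so that CAGAC also appears as GTCTG and GGGCGG as CCGCCC, and matches that overlap run together.
Lama1: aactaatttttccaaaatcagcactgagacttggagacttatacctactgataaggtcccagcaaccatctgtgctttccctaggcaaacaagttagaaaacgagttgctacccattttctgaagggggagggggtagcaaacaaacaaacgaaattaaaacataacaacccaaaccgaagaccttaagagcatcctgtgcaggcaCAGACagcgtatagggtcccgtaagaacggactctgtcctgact
Lamb1: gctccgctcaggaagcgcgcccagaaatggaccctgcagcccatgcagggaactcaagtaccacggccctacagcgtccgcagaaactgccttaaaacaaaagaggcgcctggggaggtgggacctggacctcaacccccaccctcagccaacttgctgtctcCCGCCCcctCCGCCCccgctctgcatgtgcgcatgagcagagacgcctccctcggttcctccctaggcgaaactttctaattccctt
Lamc1: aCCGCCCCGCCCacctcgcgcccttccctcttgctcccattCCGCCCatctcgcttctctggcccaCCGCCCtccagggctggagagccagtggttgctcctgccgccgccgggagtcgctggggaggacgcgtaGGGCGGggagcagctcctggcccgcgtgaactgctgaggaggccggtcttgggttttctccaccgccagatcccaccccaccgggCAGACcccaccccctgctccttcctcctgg
Lama5: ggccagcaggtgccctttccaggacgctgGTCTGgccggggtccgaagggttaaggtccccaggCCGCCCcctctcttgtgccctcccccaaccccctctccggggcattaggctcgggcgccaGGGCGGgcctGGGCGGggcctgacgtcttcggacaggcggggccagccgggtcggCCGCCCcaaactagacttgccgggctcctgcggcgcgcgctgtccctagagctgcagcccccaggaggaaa

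*Lama1* held 1 CAGAC match and 0 GGGCGG matches, *Lamb1* 0 and 2, *Lamc1* 1 and 5, and *Lama5* 1 and 4, at a GC content of 44.8%, 62.0%, 71.2% and 72.8%. *Lamc1* and *Lama5*, which moved in opposite directions in Cl19, thus had nearly the same matches. Of the 41 genes, 31 had a promoter entry. CAGAC was in 20 of the 31 (64.5%) and in 42.6% of all 27457 rat promoters of the same length, and GGGCGG in 15 (48.4%) and in 32.3%. TGANTCA, the AP-1 site, was in 1 (3.23%), *Lama3*, and in 6.39% of all, and the CArG box, the site of serum response factor, in 2 (6.45%), *Lama2* and *Itgb6*, and in 1.5% of all. A match of letters is a description of the window and not evidence of binding.

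*Lama3*, the α chain of the epithelial laminin, appeared in both lines. It was well above background on no d0 or d2 array of either line. On d6 it read 7.51, 8.79 and 7.15 in Cl19, at least 43.9-fold over d0 (adjusted p = 3.2e-09), and 5.36, 4.94 and 5.32 in 3c3, at least 5.79-fold over d0 (adjusted p = 3.95e-07). Such a bound sets the d6 mean against the higher of the probe's own reading and the lowest signal still well above background on each d0 array.

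*Lamb3*, the β chain of that trimer, gave different answers from different probes. Its brightest probe read 5.68, 5.51 and 4.53 on Cl19 d0 and 5.40, 5.25 and 4.99 on d6 and was called in neither line (-0.03 ± 0.43 in Cl19, -0.25 ± 0.43 in 3c3). Probes A_44_P1034209 and A_44_P1034201, named after their values were seen, rose in Cl19 from means of 6.45 and 6.44 to 10.35 and 10.48 (log2 changes 3.90 and 4.05, adjusted p = 0.000194 and 0.00113). In 3c3 they went from 3.25 and 2.83 to 3.41 and 2.64 and were not called (0.16 and -0.19). A further probe, A_43_P16389, was called higher in Cl19 (1.19) and lower in 3c3 (-1.10), where it was above background on no d0 or d6 array. With the mean over all probes of a gene, *Lamb3* was called higher in Cl19 (2.28, adjusted p = 0.000142) and the difference between the lines was called (2.62, adjusted p = 0.00394). Over the set, 20 further probes were tested in each line: of 40 comparisons with the brightest probe, 33 gave the same call, 7 were called for only 1 of the pair and 0 were called in opposite directions.

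The epithelial markers moved the same way as *Lama3*. All 7 were called higher on d6 in Cl19 and 6 in 3c3, and their mean went from 11.12 to 11.24 (d0) to 13.75 to 13.83 (d6) over the Cl19 arrays and from 10.67 to 11.08 to 13.50 to 13.74 over the 3c3 arrays. In primary SMC the mean was 3.24 to 3.51, with *Cdh1*, *Cldn6*, *Cldn7*, *Krt19* and *Tacstd1* (the older name of *Epcam*) above background on neither array. The visceral endoderm markers *Afp*, *Apoa1*, *Apoa4*, *Rbp4* and *Ttr* were also called higher in both lines on d6, while *Amn* and *Cubn* of the same 8 were called lower. Over all tested probes, 22.0% were called higher and 30.3% lower in Cl19, and 19.7% and 28.6% in 3c3. The part of either list in the laminin result was not tested.

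*Lama4*, the laminin α chain of endothelium and smooth muscle, went in opposite directions. In Cl19 it read 5.87, 5.77 and 6.58 on d0 and 4.55, 4.32 and 3.07 on d6, a 4.26-fold fall (-2.09 ± 0.47, adjusted p = 0.000977). In 3c3 it read 4.28, 3.42 and 2.69 on d0, where 2 of 3 arrays were above background, and 5.54, 5.99 and 6.04 on d6, a 5.26-fold rise (2.40 ± 0.47, adjusted p = 0.000352). The 2 groups of d6 arrays did not overlap, and the difference between the changes was -4.49 ± 0.67 (adjusted p = 8.88e-05). The rise in 3c3 rested on the brightest probe, since the other 2 probes also fell in Cl19 (-2.18 and -2.50) but were not called in 3c3 (0.79 and 0.36). Of 7 endothelial markers, *Esam*, *Pecam1*, *Tek* and *Tie1* fell in Cl19, and in 3c3 *Tie1* rose and *Pecam1* fell. Their mean went from 4.85 to 5.19 (d0) to 2.30 to 3.05 (d6) over the Cl19 arrays and from 4.21 to 4.27 to 4.03 to 4.39 over the 3c3 arrays, and their part in the *Lama4* result was not tested.

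*Lama2* and *Lamc3* stayed near the detection limit in the rMAPC cultures. *Lama2*, the α chain of skeletal muscle laminin, was above background on no Cl19 array of d0, d2 or d6. In 3c3 on d6 it read 5.27, 0.48 and 0.34, so that a single array decided its mean. Its 3c3 difference, not called over the 3 arrays, passed without 3c3 d6 replicate 2 (adjusted p = 0.0174) or replicate 3 (0.0123). *Lamc3* was above background on 2 of 3 arrays of d0, d2 and d6 in each line, and its d6 differences did not pass (0.41 in Cl19 and 0.73 in 3c3).

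**Figure D2:**
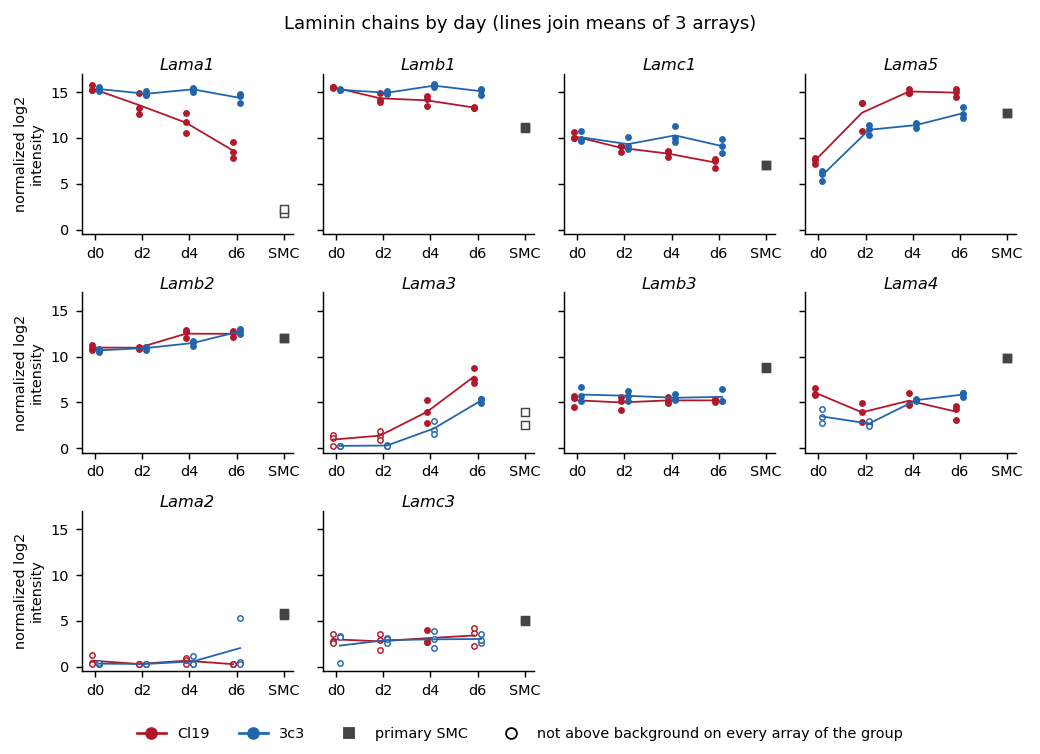
Normalized log2 intensity (y axis) of 10 laminin chains by day and in primary SMC (SMC, x axis), with 1 point per array, red for Cl19, blue for 3c3, gray squares for primary SMC, and lines through the means of 3 arrays. Hollow points belong to groups not above background on every array. *Lama1*, *Lamb1* and *Lamc1* part by line, *Lama5* and *Lama3* climb in both, and *Lama1* is at the bottom of its panel in primary SMC.

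Among the matrix genes, fibronectin (*Fn1*), the main ligand of integrin α5β1, rose in both lines. Cl19 arrays read 8.22, 7.71 and 8.23 on d0 and 13.36, 15.30 and 14.33 on d6, a 77.5-fold rise (6.28 ± 0.46, adjusted p = 1.92e-09). The 3c3 arrays read 7.83, 8.02 and 8.65 and 12.22, 12.48 and 12.28, a 17.8-fold rise (4.16 ± 0.46, adjusted p = 6.55e-07). All d6 arrays of Cl19 were above those of 3c3, and the rise was larger in Cl19 by 2.12 ± 0.66 (adjusted p = 0.0295). That difference between the lines was lost without the slide of 3c3 replicate 3 (1.85, adjusted p = 0.154) and without Cl19 d0 replicate 2, Cl19 d6 replicate 2 or 3, 3c3 d0 replicate 3 or 3c3 d6 replicate 1 or 3 (adjusted p = 0.0502 to 0.0887).

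*Agrn*, a heparan sulfate proteoglycan that bridges laminin to dystroglycan, read 10.44, 10.40 and 10.18 on Cl19 d0 and 12.91, 13.64 and 13.22 on d6, a 7.58-fold rise (adjusted p = 2e-08). The 3c3 arrays read 9.86, 10.21 and 10.04 and 11.84, 11.51 and 11.37, a 2.90-fold rise (adjusted p = 7.43e-05). The rise was larger in Cl19 by 1.39 ± 0.37 (adjusted p = 0.0115), which did not hold without the slide of 3c3 replicate 3 (1.29, adjusted p = 0.0796). *Vtn* (vitronectin, a ligand of αv integrins) was above background on no d0 or d2 array. On d6 it read 5.47, 5.14 and 6.27 in Cl19, at least 9.60-fold over d0 (adjusted p = 4.35e-09 with no filter on dim probes), and stayed not well above background in 3c3 at 1.59, 1.58 and 0.92. There the difference from d0, between readings below background, was not called (adjusted p = 0.0558). It passed with the replicate number as a block (adjusted p = 0.0453) and in some other settings.

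Of the nidogens, which link laminin to type IV collagen, 1 was called, in 3c3. *Nid1* read 9.08, 9.27 and 9.60 on Cl19 d0 and 9.75, 10.07 and 10.03 on d6, and 7.47, 7.10 and 7.07 and 9.62, 7.11 and 7.83 in 3c3, with neither change called (0.63 ± 0.54 and 0.97 ± 0.54), although the one in 3c3 passed with the replicate block (adjusted p = 0.0303) and without 3c3 d6 replicate 2 (0.0329). *Nid2* went from 7.64, 8.82 and 8.25 to 9.44, 10.00 and 9.37 in 3c3, a 2.58-fold rise (adjusted p = 0.00817), and was not called in Cl19 (-0.03 ± 0.40). The *Nid2* call was lost without 3c3 d0 replicate 1 (1.07, adjusted p = 0.0547), the lowest of its arrays, and the difference between the lines, not called here (-1.40 ± 0.57), passed with the replicate block (adjusted p = 0.0329). *Dag1*, the dystroglycan gene, read 13.22, 13.36 and 13.08 on 3c3 d0 and 14.50, 14.81 and 14.33 on d6, a 2.51-fold rise (adjusted p = 7.63e-06). In Cl19 it read 13.20, 13.48 and 13.19 and 13.34, 14.09 and 13.69 (0.41 ± 0.18, adjusted p = 0.0663), and that difference passed with the replicate number as a block (adjusted p = 0.00612). The rise of *Dag1* was smaller in Cl19 than in 3c3 (-0.92 ± 0.26, adjusted p = 0.0169), a call lost without the slide of 3c3 replicate 3 (0.0567) or without Cl19 d0 replicate 2 (0.0524), Cl19 d6 replicate 1 (0.055) or 3c3 d6 replicate 2 (0.0533).

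**Figure D3:**
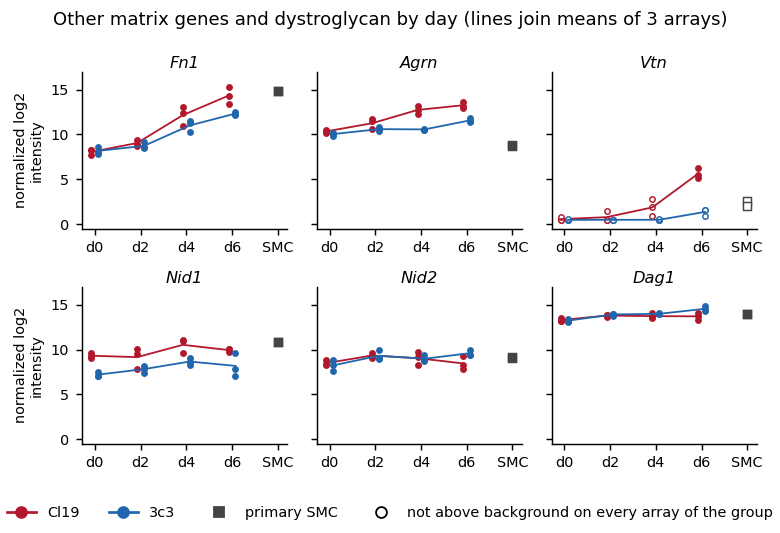
Normalized log2 intensity (y axis) of 5 matrix genes and *Dag1* by day and in primary SMC (SMC, x axis), drawn as for the laminin chains, with 1 point per array and lines through the means of 3 arrays. *Fn1* and *Agrn* climb in both lines and further in Cl19, *Vtn* leaves the background on the Cl19 d6 arrays (and on 1 of d4), and *Nid1* is higher in Cl19 from d0.

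Of the 8 integrin β chains, 5 were called higher in both lines, 1 went opposite ways, and *Itgb2* and *Itgb8* were not tested. The *Itgb6* call in Cl19 and the *Itgb3* call in 3c3 did not hold in every setting. *Itgb4*, which pairs with α6 to bind laminin in hemidesmosomes, rose in both lines (probe at chr10:106116523-106116582 on the plus strand, rn4). It read 7.51, 6.98 and 7.14 on Cl19 d0 and 12.21, 13.70 and 12.67 on d6, a 50.1-fold rise (5.65 ± 0.41, adjusted p = 1.41e-09). In 3c3 it read 7.17, 6.35 and 7.23 and 13.36, 13.26 and 12.96, a 77.5-fold rise (6.28 ± 0.41, adjusted p = 6.29e-10). No difference between the lines was called (-0.63 ± 0.58, adjusted p = 0.573).

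*Itgb6*, an epithelial chain that with αv binds and activates latent TGF-β, rose mainly in 3c3. It read 9.34, 9.23 and 9.18 on 3c3 d0 and 12.34, 12.90 and 12.47 on d6, a 10.0-fold rise (3.32 ± 0.32, adjusted p = 9.69e-08). In Cl19 it read 9.57, 9.36 and 9.12 and 9.91, 10.77 and 9.77 (0.80 ± 0.32, adjusted p = 0.0425). The Cl19 call was marginal and was lost with 75th percentile scaling (0.61, adjusted p = 0.0905) and without Cl19 d6 replicate 2 (0.49, adjusted p = 0.243), Cl19 d0 replicate 2 (0.0812) or Cl19 d0 replicate 3 (0.133). The difference between the lines was -2.53 ± 0.45 (adjusted p = 0.000493). The epithelial marker values given beside the laminin chains apply to *Itgb4* and *Itgb6* too.

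*Itgb1*, the partner of most laminin and collagen binding α chains, rose 2.10-fold in Cl19, from 11.58, 11.61 and 11.63 to 12.47, 12.82 and 12.73 (adjusted p = 6.75e-06). In 3c3 it rose 2.55-fold, from 11.20, 11.20 and 11.16 to 12.33, 12.49 and 12.80 (adjusted p = 6.29e-07). *Itgb5*, an αv partner that binds vitronectin, rose 2.05-fold in Cl19, from 8.54, 8.62 and 8.79 to 9.52, 9.56 and 9.98 (adjusted p = 5.25e-05). In 3c3 *Itgb5* rose 3.13-fold, from 7.90, 7.82 and 8.06 to 9.55, 9.47 and 9.69 (adjusted p = 3.5e-07), and its other probe was called in 3c3 (0.92) but not in Cl19 (0.26). The difference between the lines in *Itgb5* (-0.61 ± 0.25, adjusted p = 0.102) passed with the replicate block (adjusted p = 0.0292). For *Itgb1* and *Itgb5* every d6 array was above every d0 array of its line.

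*Itgb3*, the other vitronectin-binding partner of αv, was above background on no d0 or d2 array. On d6 it read 4.28, 5.76 and 4.85 in Cl19, at least 6.08-fold over d0 (adjusted p = 3e-07 with no filter on dim probes), and 3.53, 1.91 and 2.01 in 3c3, where only 1 of 3 arrays was above background. The 3c3 call (1.84 ± 0.45, adjusted p = 0.00388 with no filter on dim probes) was lost with normexp background correction (0.13, adjusted p = 0.221). It was also lost with dim values set to the floor of each array (0.60, adjusted p = 0.373). The chains β2 and β8 (*Itgb2*, *Itgb8*) and the chains α4 and α8 (*Itga4*, *Itga8*) were above background on none of the 26 arrays. The *Itgb3* difference between the lines (2.53 ± 0.64, adjusted p = 0.0142 with no filter on dim probes) rests partly on readings below background. It was lost without the slide of 3c3 replicate 3 (adjusted p = 0.08).

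The laminin-binding α chains α3, α6 and α7 each behaved differently. *Itga7*, the laminin receptor of contractile muscle, was high on d0, at 12.56, 12.39 and 12.59 in Cl19 and 13.45, 12.74 and 12.95 in 3c3. On d6 it read 8.19, 8.52 and 8.76 in Cl19, a 16.2-fold fall (-4.02 ± 0.31, adjusted p = 2.84e-09), and 10.98, 11.44 and 11.33 in 3c3, a 3.47-fold fall (-1.80 ± 0.31, adjusted p = 8.29e-05). All 6 d6 arrays lay below all d0 arrays of their line. The fall was larger in Cl19 by 2.22 ± 0.43 on the log2 scale (adjusted p = 0.00109).

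*Itga6*, the partner of β4 and β1 in laminin binding, read 7.10, 6.80 and 6.91 on Cl19 d0 and 4.91, 5.57 and 5.37 on d6, a 3.15-fold fall (-1.66 ± 0.41, adjusted p = 0.00213). The 3c3 readings were 7.02, 6.42 and 8.18 and 8.75, 7.95 and 8.27, called as a 2.17-fold rise (1.12 ± 0.41, adjusted p = 0.0314). The 3c3 arrays of the 2 days overlapped, and the call was lost without 3c3 d0 replicate 1 (0.0901), 3c3 d0 replicate 2 (0.184), 3c3 d6 replicate 1 (0.119) or 3c3 d6 replicate 3 (adjusted p = 0.0596), whereas the difference between the lines kept its call in every setting tried (-2.77 ± 0.58, adjusted p = 0.00203). Its other probe, A_44_P187056, was called lower in Cl19 (-1.83) and higher in 3c3 (1.71, adjusted p = 2.26e-05). *Itgb4* thus rose in both lines while the gene of its partner chain, *Itga6*, fell in Cl19. *Itga3*, which pairs with β1 to bind laminins α3 and α5, rose 4.41-fold in 3c3, from 4.91, 4.55 and 4.70 to 6.89, 6.83 and 6.86 (adjusted p = 1.47e-05). In Cl19 *Itga3* read 4.65, 4.58 and 4.70 on d0 and 5.05, 4.87 and 4.48 on d6 (0.16 ± 0.31, adjusted p = 0.703), and the difference between the lines was -1.98 ± 0.44 (adjusted p = 0.00323).

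The α chains *Itga9*, *Itga5* and *Itgav* rose in both lines. *Itga9*, a receptor for tenascin-C and osteopontin, read 3.97, 4.25 and 4.15 on Cl19 d0 and 9.21, 9.18 and 9.29 on d6, a 34.3-fold rise (5.10 ± 0.21, adjusted p = 1.46e-12). The 3c3 arrays read 6.17, 5.51 and 5.84 and 9.91, 10.57 and 10.56, a 22.7-fold rise (4.50 ± 0.21, adjusted p = 1.27e-11). *Itga5*, the fibronectin receptor chain, rose 3.60-fold in Cl19 (8.39, 8.42 and 8.48 to 10.18, 10.41 and 10.24, adjusted p = 7.51e-08). The *Itga5* rise in 3c3 was 2.85-fold (8.94, 8.66 and 8.94 to 10.64, 10.20 and 10.24, adjusted p = 1.61e-06). *Itgav*, the common partner of β1, β3, β5, β6 and β8, rose 2.13-fold in Cl19 (6.48, 6.38 and 6.56 to 7.18, 7.96 and 7.54, adjusted p = 0.000224). In 3c3 its rise was 2.73-fold (6.40, 6.23 and 6.37 to 7.82, 7.75 and 7.78, adjusted p = 1.46e-05). No difference between the lines was called for the 3 genes (adjusted p = 0.21 for *Itga9*, 0.464 for *Itga5* and 0.514 for *Itgav*).

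Of the collagen-binding α chains, α2 fell while α10 and α11 appeared in Cl19. *Itga2*, the collagen receptor of epithelia and platelets, read 7.67, 7.43 and 7.52 on Cl19 d0 and was above background on no d6 array (0.41, 0.33 and 0.37), at least 48.8-fold lower (adjusted p = 1.53e-09). The 3c3 readings were 8.25, 8.15 and 8.26 and 5.57, 5.79 and 6.00, a 5.42-fold fall (-2.44 ± 0.52, adjusted p = 0.000717). The difference between the lines was called (-4.73 ± 0.74, adjusted p = 0.000134), its size rests on values below background in Cl19, and it was lost with normexp background correction (-0.47, adjusted p = 0.186).

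*Itga10* was above background on no d0 or d2 array and read 4.28, 5.92 and 4.49 on Cl19 d6, at least 5.79-fold over d0 (adjusted p = 7.25e-06 with no filter on dim probes). *Itga11*, a receptor for fibrillar collagen on mesenchymal cells, read 4.05, 5.45 and 4.54 there, at least 5.0-fold over d0 (adjusted p = 4.79e-05). In 3c3 on d6 *Itga10* was above background on no array and *Itga11* on 1 of 3 (3.38, 2.03 and 0.23). The *Itga11* difference between the lines (3.42 ± 0.89, adjusted p = 0.0101) did not pass without the slide of 3c3 replicate 3 (2.26, adjusted p = 0.0649). The *Itga10* difference was 3.43 ± 0.71 (adjusted p = 0.00339 with no filter on dim probes). The sizes of both rest partly on readings below background, and *Itga10* entered the test only through Cl19 d6. Of 7 fibroblast and mesenchyme markers, *Dcn*, *Lum* and *Twist1* rose and *Pdgfra* and *Vim* fell in Cl19, while 0 rose and 3 fell in 3c3. Over all tested probes, 22.0% were called higher and 30.3% lower in Cl19, and 19.7% and 28.6% in 3c3. The mean of the 7 markers went from 4.43 to 4.56 (d0) to 5.56 to 5.73 (d6) over the Cl19 arrays. Over the 3c3 arrays it went from 4.77 to 4.88 to 3.99 to 4.44. The part of these markers in the *Itga10*, *Itga11* and *Vtn* results was not tested. *Itga1*, the collagen IV receptor of smooth muscle, was called in neither line (0.26 ± 0.34 in Cl19, 0.52 ± 0.34 in 3c3). Its Cl19 d6 arrays read 5.39, 7.64 and 6.83, and without replicate 1, the lowest, both lines passed (0.88, adjusted p = 0.00284, in Cl19 and 0.0378 in 3c3).

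*Itgae* and *Itgb7*, which form a receptor for E-cadherin in lymphocytes, were both measured here. The *Itgae* values rest on probe A_44_P460797 alone. Its other probe, A_44_P165494, was above background on none of the 26 arrays and was not tested. *Itgae* fell 6.99-fold in Cl19, from 10.34, 10.26 and 10.24 to 7.20, 7.39 and 7.85 (adjusted p = 2.38e-10). In 3c3 it fell 3.26-fold, from 10.15, 10.26 and 10.14 to 8.74, 8.43 and 8.26 (adjusted p = 2.46e-07). *Itgb7* fell 6.50-fold in Cl19, from 9.29, 9.55 and 9.61 to 6.47, 6.73 and 7.15 (adjusted p = 1.39e-06). It rose 3.00-fold in 3c3, from 7.77, 7.63 and 7.85 to 9.50, 8.73 and 9.78 (adjusted p = 0.000634). The *Itgb7* arrays thus crossed between the lines, with Cl19 higher on d0 and 3c3 higher on d6, and the difference between the changes was -4.29 ± 0.47 (adjusted p = 3.56e-06). Of 8 leukocyte markers, *Cd3e*, *Itgal* and *Itgam* were above background on no d0, d2, d4 or d6 array, and *Ptprc* on none of the 3c3 arrays and of the Cl19 arrays of d0, d2 and d4. *Cd14*, *Cd68* and *Csf1r* of the same list were above background on all 26 arrays, and *Csf1r* was called higher on d2 in both lines and on d6 in 3c3 (75.4-fold). The mean of the list was 2.48 to 2.80 on the Cl19 d0 arrays, 2.60 to 2.64 on Cl19 d6, 2.63 to 2.81 on 3c3 d0 and 3.20 to 3.71 on 3c3 d6, and its part in the *Itgae* and *Itgb7* results was not tested.

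The binding protein genes are named for the chains they bind. *Itgb3bp*, a centromere protein that also binds the β3 tail, fell 1.54-fold in Cl19 (adjusted p = 0.000539) and 1.30-fold in 3c3 (adjusted p = 0.0242), the 3c3 call being lost with the authors' table without normalization (adjusted p = 0.206), without the slide of 3c3 replicate 3 (0.0743) and without 3c3 d0 replicate 1 (0.0623), 3c3 d0 replicate 2 (0.0665) or 3c3 d6 replicate 2 (0.0873). *Itgb1bp2* (melusin, a muscle protein) read 3.91, 3.49 and 3.84 on Cl19 d6 and 3.18, 2.87 and 0.42 on 3c3 d6, near the limit of detection, and was called in neither line, although the difference between the lines (2.15 ± 0.82) passed with the replicate block (adjusted p = 0.0491). *Itgb1bp1*, which binds the β1 tail, was above background on at most 1 array of any group.

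**Figure D4:**
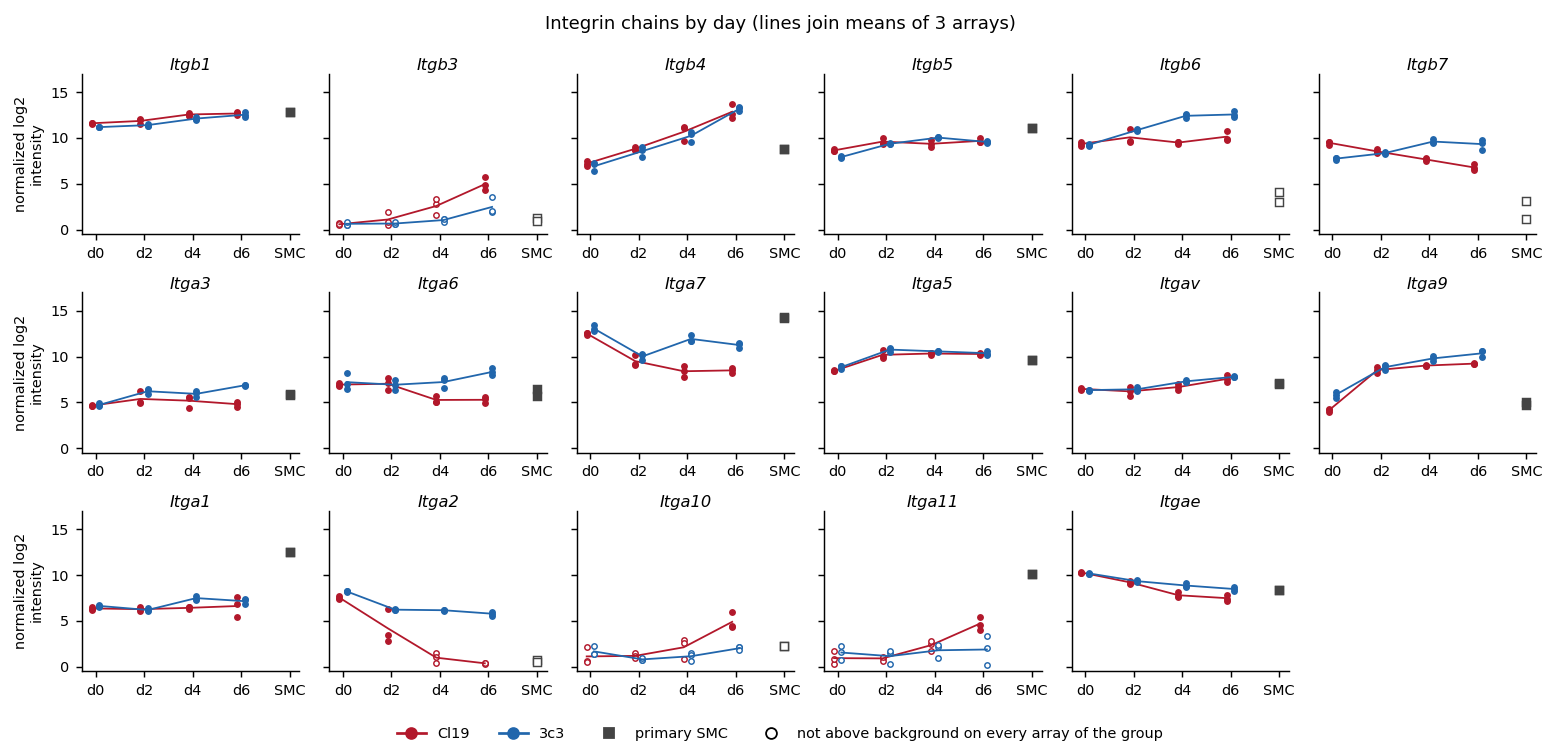
Normalized log2 intensity (y axis) of 17 integrin chains by day and in primary SMC (SMC, x axis), drawn as for the laminin chains, with 1 point per array and lines through the means of 3 arrays. *Itgb4* and *Itga9* climb together in both lines, *Itgb7* crosses between the lines, and *Itga6* parts by line after d2. *Itga1*, *Itga7* and *Itga11* are highest in primary SMC.

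Part of the set had already moved on d2. In Cl19, 7 genes were called higher on d2 than on d0 and 8 lower, where 11.2% and 11.5% of all probes were, and in 3c3 8 were called higher and 3 lower, against 9.80% and 9.27%. Without normalization between arrays the split was 9 higher and 6 lower in Cl19 and 10 and 2 in 3c3. Both lines shared the early rise of *Lama5*, *Itga9*, *Itga5*, *Itgb4* and *Itgb5* and the early fall of *Itga2*, *Itga7* and *Itgae*. *Itga9* read 8.83, 8.23 and 8.50 on Cl19 d2 and 9.08, 8.49 and 8.94 on 3c3 d2, changes from d0 of 4.40 and 2.99. *Itga5* had a change of 1.76 in Cl19 and 1.91 in 3c3 on d2, and its difference between d6 and d2 was called in neither line (0.09 and -0.40).

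*Lama5* read 10.73, 13.77 and 13.77 on Cl19 d2 and 11.43, 10.28 and 10.98 on 3c3 d2, a rise of 37.9-fold and 31.8-fold. *Itga7* fell 8.05-fold in Cl19 and 8.19-fold in 3c3 by d2, and then rose 2.36-fold from d2 to d6 in 3c3 (adjusted p = 0.00528) while falling 2.02-fold further in Cl19 (adjusted p = 0.015). On Cl19 d2, replicate 1 lay apart for several of these genes: *Lama5* averaged 12.76 over 3 arrays and 13.77 without it, *Lama1* 13.60 and 12.97, and *Itga2* 4.19 and 3.14. Without that array 13 of the 15 Cl19 d2 calls stayed, *Itgb7* and *Lamc1* being lost, and the d6 to d2 fall of *Itga7* in Cl19 was lost. Without Cl19 d2 replicate 2 or 3, 10 stayed, *Agrn*, *Itgb7*, *Lama1* and *Lamc1* being among those lost, and without the slide of 3c3 replicate 3 the 3c3 d2 calls of *Dag1* and *Itga2* were lost. On d4, for which no test was made, *Lama1* read 12.68, 10.56 and 11.78 in Cl19 and 15.03, 15.50 and 15.40 in 3c3, and *Lama3* read 2.74, 3.93 and 5.22 in Cl19 and was above background on no 3c3 array.

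Between d2 and d6, 14 genes were called higher in Cl19 and 8 lower, against 15.2% and 18.1% of all probes, and in 3c3 18 were called higher and 1 (*Itgae*) lower, against 12.0% and 15.5%. *Lama3*, *Fn1*, *Itgb3*, *Itgb1*, *Itgav* and *Lamb2* belonged to this later group in both lines, with a call from d2 to d6 and none from d0 to d2. *Itga10*, *Itgb3* and *Vtn*, called higher in Cl19 here, entered the test only through Cl19 d6. In 3c3 *Itgb3* was above background on only 1 of 3 d6 arrays and on no earlier array. *Fn1* changed by 0.99 in Cl19 and 0.56 in 3c3 to d2, neither called, and by 5.28 and 3.60 from d2 to d6. *Itgb4* rose in both intervals, by 1.61 and then 4.04 in Cl19 and by 1.65 and then 4.62 in 3c3. The comparisons share their arrays: d0 enters both changes from d0, and d2 enters both intervals. Without the slide of 3c3 replicate 3, 14 of the 19 calls from d2 to d6 in 3c3 stayed, *Agrn*, *Dag1*, *Itga1*, *Itgb7* and *Lama5* being lost.

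**Figure D5:**
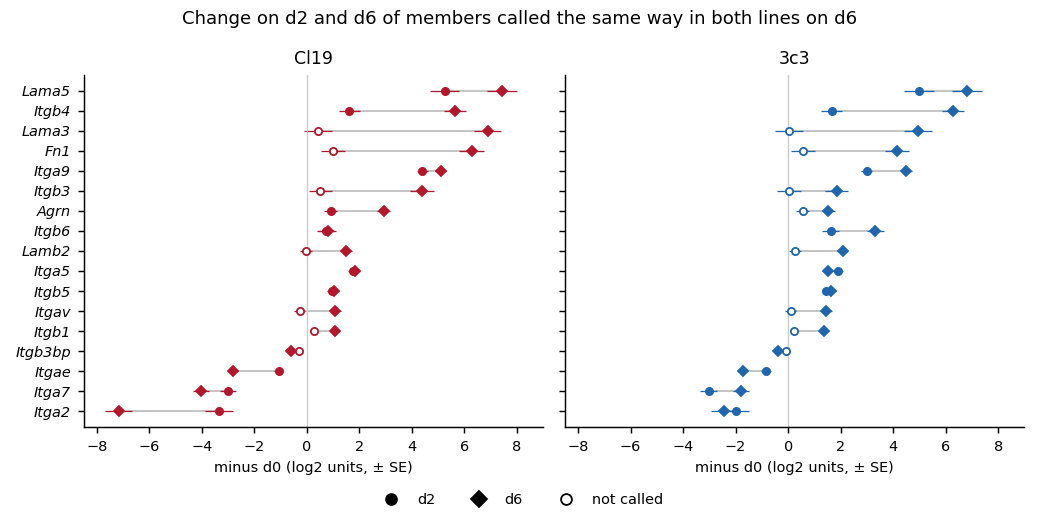
Change from d0 on d2 (circles) and d6 (diamonds) of 17 of the 18 genes called the same way in both lines on d6, in Cl19 (left) and 3c3 (right), in log2 units on the x axis with standard errors and fitted values also where d0 was below background. Hollow symbols did not pass the test. For *Itga5*, *Itgb5* and *Itga9* most of the change is there on d2. For *Lama3*, *Fn1* and *Itgb3* the d2 change did not pass the test, and most of the change came after d2.

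The lines differed in their d6 change for 18 of the 41 genes, with 6 changes higher in Cl19 and 12 lower, where 8.17% and 9.27% of all probes were called. Higher in Cl19 were *Agrn*, *Fn1*, *Itga10*, *Itga11*, *Itgb3* and *Vtn*. Of these, *Itga10*, *Itgb3* and *Vtn* entered the test only through Cl19 d6, the group where they were high. The count of 6 is therefore not a fair match for the share over all probes. Lower were *Dag1*, *Itga2*, *Itga3*, *Itga6*, *Itga7*, *Itgae*, *Itgb6*, *Itgb7*, *Lama1*, *Lama4*, *Lamb1* and *Lamc1*. Without the slide of 3c3 replicate 3, 12 of the 18 stayed, and *Agrn*, *Dag1*, *Fn1*, *Itga11*, *Itgb3* and *Lamc1* were lost.

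On d0, before the factors, 4 genes were higher in Cl19 and 1 was lower, against 2.00% and 1.08% of all probes. *Lama4* (2.61 ± 0.47), *Nid1* (2.10 ± 0.54), *Itgb7* (1.73 ± 0.33) and *Itgb5* (0.72 ± 0.17) were higher and *Itga9* (-1.72 ± 0.21) was lower, on the log2 scale. Without the slide of 3c3 replicate 3, *Lama4*, *Nid1* and *Itgb5* lost their call and *Itgb7* and *Itga9* kept it. Without any single Cl19 d0 array or 3c3 d0 replicate 1 or 2, 3 genes were called. The other 31 tested genes were not called, *Lama1* (0.07 ± 0.52), *Lamb1* (0.30 ± 0.25) and *Lamc1* (0.12 ± 0.44) among them.

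Primary SMC was set against d6 of both lines. Against Cl19 d6, 10 of the 41 genes were higher in primary SMC (24.4%, or 27.8% of the 36 tested). Another 15 were lower (36.6%, or 41.7% of those tested), where 32.8% and 38.6% of all tested probes were called. Against 3c3 d6, 12 were higher (29.3%, or 33.3% of those tested) and 19 lower (46.3%, or 52.8%), against 33.4% and 38.1%. The shares of the tested genes were not far from those over all probes, except for the larger share lower against 3c3 d6. *Itga10*, *Itgb3* and *Vtn*, in the test only through Cl19 d6, are counted as lower against Cl19 d6. Against 3c3 d6, *Itgb3* is counted as lower and *Vtn* as higher, though neither was above background on any primary SMC array. With no filter on dim probes that *Vtn* call was lost (adjusted p = 0.0733) and that of *Itgb3* stayed (0.0311). The 2 comparisons share the primary SMC arrays, and scan day and group cannot be told apart in either. Before normalization the median probe differed by -2.17 (primary SMC minus Cl19 d6) and -2.09 (minus 3c3 d6) on the log2 scale, so these differences are relative to an array median set equal. With the authors' table without normalization 7 genes were higher and 25 lower against Cl19 d6 and 6 and 24 against 3c3 d6, and with 75th percentile scaling 15 and 15, and 13 and 15.

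Higher in primary SMC than on d6 of both lines were *Itga1*, *Itga7*, *Itga11*, *Lama2*, *Lama4*, *Lamb3*, *Itgb5* and *Itgb1bp2*, of which *Itgb5* was lower without normalization between arrays (-0.75 and -0.64). *Lama2* entered the test only through primary SMC. With no filter on dim probes its adjusted p was 2.93e-05 against Cl19 d6 and 0.00153 against 3c3 d6. Its other probes, A_43_P21836, A_43_P16021 and A_43_P20759, were above background on no array, primary SMC included. Against Cl19 d6, *Lamb3* was higher by its brightest probe alone. Probes A_44_P1034209 and A_44_P1034201 read means of 3.58 and 3.72 in primary SMC against 10.35 and 10.48 on Cl19 d6. With the mean over all probes *Lamb3* was lower than on Cl19 d6 (-2.52, adjusted p = 9.01e-05). On 3c3 d6 those probes read 3.41 and 2.64. Probe A_43_P16389 read 3.84 in primary SMC, above background on 1 of 2 arrays, and 1.00 on 3c3 d6, above background on none. *Itga1* read 12.56 and 12.52, 60.5-fold over Cl19 d6 and 42.0-fold over 3c3 d6. *Itga7* read 14.28 and 14.25, 54.7-fold over Cl19 d6 and 8.07-fold over 3c3 d6, and also above every d0 array. *Itga11* read 10.11 and 10.10, *Lama4* 9.86 and 9.79 and *Itgb1bp2* 7.85 and 7.95. The smooth muscle chains α1 and α7 were thus well above their d6 levels in either line.

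Several chains of the rMAPC cultures were low in primary SMC. *Lama1* read 1.86 and 2.31, not well above background and at least 29.0-fold below Cl19 d6 and 1552-fold below 3c3 d6. *Itgb6* was at least 78.4-fold and 420.4-fold lower, and *Itgb7* at least 8.05-fold and 47.3-fold lower. *Itga9* (4.70 and 5.05) and *Itgb4* (8.75 and 8.81), both of which rose during differentiation, were 20.5-fold and 16.9-fold lower in primary SMC than on Cl19 d6 and 44.5-fold and 21.3-fold lower than on 3c3 d6.

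For some genes that rose, d6 and primary SMC were not called different, and these calls turned on the scaling. *Fn1* read 14.87 and 14.84 and was not called different from Cl19 d6 (0.53 ± 0.52, adjusted p = 0.372), while it was 5.78-fold over 3c3 d6 (adjusted p = 0.000226). *Lama5* read 12.73 and 12.72, 4.67-fold below Cl19 d6 (adjusted p = 0.00408) and not called different from 3c3 d6 (0.01 ± 0.63, adjusted p = 0.993). *Itgb1* read 12.83 and 12.83 and was called in neither comparison (0.15 ± 0.17 and 0.29 ± 0.17), but it was higher with 75th percentile scaling (0.77 and 0.83) and lower without normalization (-1.60 and -1.47). *Fn1* was called higher than on Cl19 d6 with 75th percentile scaling (1.66, adjusted p = 0.0044), and *Lama5* lower than on 3c3 d6 without normalization (-1.78, adjusted p = 0.0125).

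The wider pathway was read from gene lists drawn up by function. Of 20 tested adaptors and kinases of integrin adhesion, 17 rose in Cl19 and 1 (*Parvb*) fell, and 15 rose in 3c3 and *Parvb* fell (median change 1.22 and 1.05). Called with changes of at least 2 log2 units in both lines were *Tns1* (tensin, 209.4-fold and 54.5-fold, above background on 2 of 3 Cl19 d0 arrays), *Ptk2b* (6.54-fold and 19.6-fold), *Fhl2* (10.7-fold and 7.46-fold) and *Lims2* (14.6-fold and 26.7-fold, above background on 1 of 3 3c3 d0 arrays). The talin, vinculin, paxillin, zyxin and integrin-linked kinase genes *Tln1*, *Vcl*, *Pxn*, *Zyx* and *Ilk* rose in both. These counts stand beside the 22.0% and 19.7% of all probes that were called higher.

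The counts below stand beside all tested probes, of which 22.0% were called higher and 30.3% lower in Cl19. In 3c3 these shares were 19.7% and 28.6%. Among 13 tested basement membrane collagens and associated proteins, 4 rose and 5 fell in Cl19, and 3 rose and 2 fell in 3c3. *Fbln2* (fibulin) rose in both, 32.1-fold and 9.89-fold, with 2 of 3 3c3 d0 arrays above background. Of 15 tested genes of the dystroglycan complex and its glycosylation, 5 rose and 4 fell in Cl19 and 4 rose and 3 fell in 3c3. For lists this small, the collagen and dystroglycan counts were not far from the shares over all probes. *Sgca*, the muscle α-sarcoglycan, rose at least 36.8-fold and 3.48-fold from below background, and *Dtnb* 31.1-fold and 4.94-fold. Of 9 tested hemidesmosome and laminin-binding partners, 4 rose and 1 fell in Cl19 and 6 rose and 1 fell in 3c3, with the Lutheran laminin receptor gene *Bcam* (11.8-fold and 7.24-fold, above background on 2 of 3 3c3 d0 arrays) and *Lgals3* (10.1-fold and 8.03-fold) among them. *Col17a1*, a defining hemidesmosome collagen, was above background on no array of any day.

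Of 6 tested genes for the TGF-β ligands and their latency proteins, on which αv integrins act, 4 rose and 0 fell in each line (median change 3.29 and 1.58). The shares of all tested probes called higher were 22.0% in Cl19 and 19.7% in 3c3. *Tgfb1* rose 52.5-fold in Cl19 and 43.3-fold in 3c3. *Tgfb3* rose 89.2-fold in Cl19, with 2 of 3 d0 arrays above background, and at least 75.3-fold in 3c3. *Tgfb2* was above background on no d0 array and rose at least 7.82-fold in Cl19, while in 3c3 it was above background on 2 of 3 d6 arrays and no bound above 1 could be set. Of the leukocyte chains *Itgal*, *Itgam*, *Itgax* and *Itgad*, 3 had a probe, and *Itgad*, the only one tested, was called in neither line.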

How the data were processed

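RNA of 2 rMAPC lines on d0, d2, d4 and d6 (3 arrays per line and day) and of primary SMC (2 arrays) was hybridized to 1-color Agilent whole rat genome arrays annotated on rn4. The authors extracted the intensity of each spot with Agilent Feature Extraction 10.1.1.1, which subtracts the background, and deposited the scanner files. The authors also deposited a table of log2 values, which equalled log2 of the processed signal and held no normalization between arrays.

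The deposited intensity was taken to log2, quantile normalized over the 26 arrays and averaged over the spots of a probe, after the study's methods. Quantile normalization sets the arrays to 1 distribution, so every change is relative to the other probes. Of 41012 probes, the 24442 that were well above background on all arrays of 1 group or more, among 9 groups, were fitted in limma 3.58.1 (R 4.3.3) on the group means, in place of the methods' own ranking, and p-values were adjusted by Benjamini-Hochberg and called below 0.05. The fit was tested on simulated data. Tables and plots were made with Python 3.11.15, pandas 2.3.3, numpy 2.4.6 and matplotlib 3.10.9. The number of arrays limits the precision.

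The members and the gene lists were chosen with earlier results of these data known. Members were named, with values of every array for those called in both lines with a change of at least 1 log2 unit, in opposite directions, or for the difference between lines, and for their partner chains. Genes of the other lists were named where called in both lines with a change of at least 2 log2 units. The marker lists were smooth muscle, parietal and visceral endoderm, epithelial, endothelial, fibroblast, leukocyte and *Pou5f1*.

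Arrays of a replicate number shared a slide, per the scanner files, and deviated together: the correlation of deviations between d0 and d6 arrays of a slide was 0.108 to 0.504, and over all days it was below 0.1 for 2 of 36 pairs. The alternatives were 75th percentile scaling, the authors' table without normalization, normexp, no filter, a floor, the mean over probes, slide as a block, only the groups compared, and leaving out each array or the slide of 3c3 replicate 3. Some genes are not reported here.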

Additional observations from a re-analysis of the deposited data

Results flagged for a closer look

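The change from d0 to d6 differed between Cl19 and 3c3 for 18 genes by the test of that difference. Given as the Cl19 change minus the 3c3 change on the log2 scale, it was above 0 for *Vtn* (4.17), *Itga10* (3.43), *Itga11* (3.42), *Itgb3* (2.53), *Fn1* (2.12) and *Agrn* (1.39). It was below 0 for the laminin chains *Lama1* (-5.81), *Lama4* (-4.49), *Lamb1* (-2.08) and *Lamc1* (-1.91), for *Dag1* (-0.92), and for the integrin chains *Itga2* (-4.73), *Itgb7* (-4.29), *Itga6* (-2.77), *Itgb6* (-2.53), *Itga7* (-2.22), *Itga3* (-1.98) and *Itgae* (-1.10). The sizes for *Vtn*, *Itga10*, *Itga11*, *Itgb3* and *Itga2* rest partly on readings below background. *Vtn*, *Itga10* and *Itgb3* also entered the test only through Cl19 d6. Line and scan day cannot be told apart in any of the 18.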

How the results depend on the processing

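Against Cl19 d6, primary SMC differences reversed without normalization between arrays for *Itga3* (-1.31), *Itgae* (-1.54) and *Itgb5* (-0.75), and with the mean over all probes for *Lamb3* (-2.52). Against 3c3 d6 they reversed without normalization for *Itgb5* (-0.64), *Lamc3* (-0.018) and *Vtn* (-0.87), with 75th percentile scaling for *Dag1* (0.32) and with a floor for *Itgb3* (0.51). No called difference between days or lines reversed under any alternative run. Leaving out 1 array at a time, the number of members called ranged from 26 to 29 for Cl19 d6 against d0, 10 to 16 for d2 against d0 and 21 to 23 for d6 against d2. For 3c3 the ranges were 21 to 26, 11 to 12 and 15 to 21. The difference between the lines ranged from 15 to 19, d0 of Cl19 against 3c3 from 3 to 6, and primary SMC from 24 to 27 against Cl19 d6 and from 25 to 31 against 3c3 d6. Under the other alternatives the same counts ranged over 26 to 29, 13 to 17 and 18 to 24 in Cl19, 23 to 27, 9 to 14 and 15 to 22 in 3c3, 12 to 21 for the difference, 2 to 6 for d0, and 25 to 32 and 27 to 30 for primary SMC. Without the slide of 3c3 replicate 3, 2 members were called between the lines on d0. With the replicate block, 28 members were called in Cl19 and 27 in 3c3 on d6 and 21 for the difference, and the calls it added on d6 and to the difference are named beside the genes. Without normalization between arrays the median of all probes moved from -0.20 to 0.10 (Cl19 d6) and from -0.21 to 0.09 (3c3 d6). Members near the lowest signal well above background, 1.52 to 4.20 (log2) per array, have only bounds, and 2 clones with 3 arrays a day cannot show how other clones vary.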

Other observations

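The perlecan gene, the main heparan sulfate proteoglycan of basement membranes, carried no probe under its own symbol, but probes A_43_P16311 and A_44_P498815 are described as perlecan and were above background on all 26 arrays. In Cl19 they fell from 7.15 and 9.32 on d0 to 5.65 and 7.72 on d6 (log2 differences -1.50 and -1.60, limma adjusted p = 5.78e-05 and 0.000136). In 3c3 they fell from 7.12 and 9.39 to 6.16 and 8.31 (-0.96 and -1.08, adjusted p = 0.00422 and 0.00527). Primary SMC read 7.95 and 9.66, above d6 of both lines. Both probes had fallen by d2 in each line, and no difference between the lines in the d6 change was called (-0.54 and -0.52).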
